A study of Mus musculus with 16 samples.

Results

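Cells dispose of hydrogen peroxide and lipid peroxides with a small set of enzymes: the glutathione peroxidases (Gpx), catalase (Cat), the peroxiredoxins (Prdx) and the thioredoxin reductases (Txnrd) that recharge the last of these. Their RNA, and that of genes that supply or control them, was examined for 10 genes in preSC, a mouse cell culture at a precancerous stage of small cell lung cancer: Gpx1, Gpx3, Gpx4, Gpx7, Gpx8, Cat, Prdx1, Txnrd1, Gclc and Nfe2l2. They are 10 of the 17655 genes listed, and all 10 symbols were found. Gpx1 was chosen because it was nearly absent from the cells with the empty vector, so its values in that comparison are given as a description, with no test. The 9 others were chosen by name, to ask whether other peroxide-removing genes differed as well.

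Per the labels, the cells are lung neuroendocrine cells positive for Chga, null for Rb1 and Trp53 and heterozygous null for Rbl2, a genotype shared by both groups. One group carries an empty lentiviral control ("empty") and the other lentiviral Wnt5a ("Wnt5a"), a secreted ligand of non-canonical Wnt signalling. Doxycycline (1 µg/mL, 48 hours) was given to both groups, and neither the number of clones nor of separate infections is given in the sources used here. Each group has 8 deposited samples, with 7526676 to 8181010 recovered reads per empty sample and 8743431 to 8859862 per Wnt5a sample. Within a group, samples 1 to 4 differ from each other by little or no more than read sampling gives, and the same holds among samples 5 to 8 (index of dispersion 0.987 to 1.05 in 24 pairs, against 5.23 to 5.44 in the 32 other pairs within a group). Each set of 4 was averaged to 1 library, and tests rest on 2 libraries per group. Nothing in the labels says that libraries came from separate cultures, so p-values measure the spread between these libraries, which may be technical.

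All 10 neuroendocrine markers of a fixed list were abundant enough to test, with a summed normalised read count of 55270 to 58210 per empty sample and 51130 to 54972 per Wnt5a sample. Of 4 listed fibroblast markers, Dcn was tested (597 and 340.2 in the empty libraries of samples 1 to 4 and 5 to 8, against 241 and 246 in the Wnt5a libraries), while Col1a2 was under 1. The summed leukocyte (4 listed), endothelial (2) and lung epithelial (4) markers reached at most 64.0 in any sample. Chga, a neuroendocrine marker, was lower in samples 5 to 8 than in samples 1 to 4 (log2 difference -0.29, limma adjusted p = 0.025), and Uchl1, also of that list, was higher (0.34, limma adjusted p = 0.015), while the 8 other neuroendocrine markers did not pass. The part of Dcn, Chga and Uchl1 in the results was not tested. Wnt5a itself rose from 122 ± 31.4 to 1279 ± 325 (SD, n = 2 libraries). In these bulk samples, fewer cells of a type and less RNA per cell cannot be told apart.

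Glutathione peroxidases reduce peroxides, many of them with electrons from glutathione. Gpx1 is the cytosolic and mitochondrial enzyme, Gpx3 is secreted, Gpx4 reduces lipid peroxides within membranes and guards against ferroptosis, and Gpx7 and Gpx8 sit in the endoplasmic reticulum. The family divides by the residue that does the chemistry: selenocysteine, which is written by an in-frame TGA codon that would otherwise end the protein, or ordinary cysteine. The coding windows below show that codon in capitals, with 21 bases on each side, 5′ to 3′, from the GENCODE M21 transcripts (GRCm38). The windows are given because they set apart the genes that need the selenocysteine machinery from those that do not. For Txnrd1, which carries its selenocysteine near the end of the protein, the window runs to the true stop codon.
Gpx1: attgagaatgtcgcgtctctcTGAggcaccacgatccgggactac
Gpx3: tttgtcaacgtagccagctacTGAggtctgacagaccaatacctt
Gpx4: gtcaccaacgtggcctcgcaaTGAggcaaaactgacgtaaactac
Gpx7: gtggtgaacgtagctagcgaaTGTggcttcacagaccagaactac
Gpx8: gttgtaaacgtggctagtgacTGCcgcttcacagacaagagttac
Txnrd1: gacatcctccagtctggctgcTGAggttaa

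The TGA was codon 47 of 201 in Gpx1, codon 73 of 226 in Gpx3, codon 73 of 197 in Gpx4 and codon 498 of 499 in Txnrd1. In an alignment of the translated sequences, the Gpx1 position fell on TGT in Gpx7 (codon 56 of 186) and on TGC in Gpx8 (codon 79 of 209), both cysteine codons. Over the 45 bases shown, Gpx3 shared 21 with Gpx1, Gpx4 and Gpx7 25 each, and Gpx8 23. In the further member Gpx2, the gastrointestinal form, 39 of 45 bases matched and the codon was also TGA.

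Gpx1 was the only one of the 10 genes at or near 0 in one group and well above it in the other. It had 3 reads in the empty library of samples 1 to 4 and 0 in that of samples 5 to 8, against 242 and 277 reads in the Wnt5a libraries. In single samples its normalised read count ranged from 0 to 2.21 in the empty group (median 0) and from 51.8 to 66.4 in the Wnt5a group (median 61.1). All Wnt5a samples lay above all empty samples. From the pooled reads, the Wnt5a level was 153 times the empty level, an imprecise ratio because it rests on 3 reads in the empty libraries. Gpx1 was chosen for these values, so the ratio is a description only. Of the 1023 stretches of 50 bases in the Gpx1 transcript, 100% occurred in no other gene's GENCODE M21 transcripts.

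The tested genes nearest to Gpx1 on chromosome 9 were also near 0 in the empty libraries alone. Its 3 nearest tested genes on each side in RefSeq order (GRCm38.p6) are Nicn1, Tcta and Rhoa, then Usp4, Klhdc8b and Ccdc71, and the empty libraries held at most 17 reads of any of them. In the Wnt5a libraries the same 6 genes held between 118 and 2186 reads. Testing required a mean normalised read count of at least 10. A neighbour near 0 in the empty libraries could therefore be listed only if it was well above 0 in Wnt5a. Neighbours below that filter were not examined, and the share of all tested genes with this pattern was not counted. Rhoa, a small GTPase that shapes the actin cytoskeleton and is the nearest tested gene on one side, was the most abundant, with 2186 and 2164 reads in the Wnt5a and 17 and 3 in the empty libraries. The 5 tested genes closest to Gpx1 in their centred log2 levels over the 4 libraries were Klc2 and Yif1a (chromosome 19), Sgpp2 (chromosome 1), Nicn1 (chromosome 9) and Prrg3 (chromosome X), at distances of 0.172 to 0.439. With 4 libraries that share the group difference, such closeness is a description only.

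**Figure D1:**
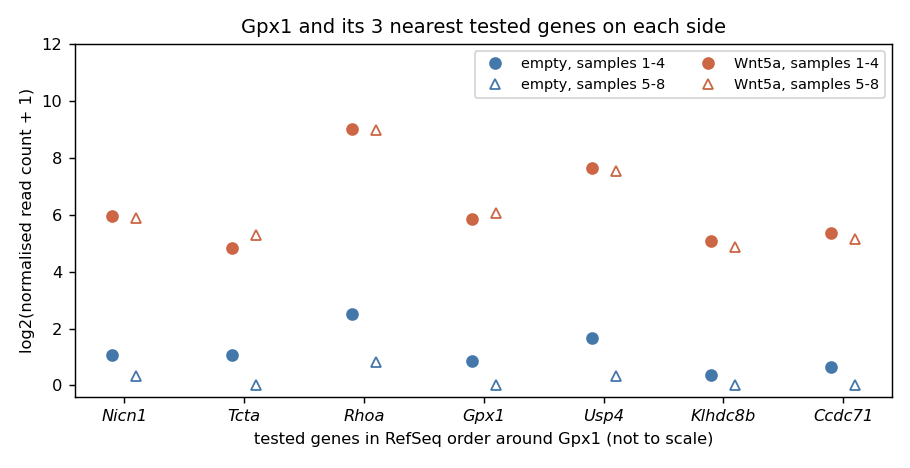
Normalised read count, as log2(count + 1), of Gpx1 and its 3 nearest tested genes on each side in RefSeq order, with 1 point per library (mean of 4 samples; blue, empty; orange, Wnt5a; filled circles, samples 1 to 4; open triangles, samples 5 to 8). All 7 genes are near 0 in both empty libraries and well above it in both Wnt5a libraries. Testing required a mean of at least 10, so genes low in both groups are not shown.

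Even in the Wnt5a cells, Gpx1 was not the main glutathione peroxidase by RNA. Divided by exon length in kilobases (exon lengths from GENCODE M21), the Wnt5a level was 56.8 for Gpx1, 788 for Gpx4, 374 for Gpx3, 34.9 for Gpx7 and 0.223 for Gpx8. Gpx2, outside the 10 genes, was at 462 by this measure, with Wnt5a libraries far apart (323 and 662 before division). Over all 10 genes and 4 libraries, the mean level per kilobase ran from Prdx1 (1525 ± 222, SD, n = 4 libraries) through Gpx4 (837 ± 59.0), Txnrd1 (602 ± 67.6), Gpx3 (376 ± 12.5), Gclc (201 ± 13.7) and Nfe2l2 (144 ± 24.2) to Gpx7 (32.5 ± 6.70), Gpx1 (28.6 ± 32.7), Cat (13.4 ± 7.05) and Gpx8 (0.172 ± 0.115). The library ranges of neighbours in this order overlapped for Gpx7 with Gpx1 and for Gpx1 with Cat, and did not overlap elsewhere. This overlap comes from pooling the groups: in the empty libraries Gpx7 (23.5 and 36.6) lay above Gpx1 (0.771 and 0), and in the Wnt5a libraries Gpx1 (53.0 and 60.6) lay above Gpx7 (31.3 and 38.6). Of the Gpx4 transcript only 31.1% of the 50-base stretches were found in no other gene, the top sharer being the pseudogene Gpx4-ps2, and for Prdx1 the share was 89.1%. Their levels therefore depend on how the authors' counting treated reads with several matches, which is not given in the sources used here. The other 8 members were at 100%.

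A minimum mean normalised read count of 10 left 12357 genes for testing, among them 9 of the 10. Gpx8 was left out: it had 0, 1, 1 and 1 reads in the 4 libraries, under the floor of 3 reads in each. Apart from Gpx1, 0 of the 8 members tested passed an adjusted p of 0.05 between the groups (limma, Benjamini-Hochberg over all genes tested), where 2.06% of all genes tested did (1.38% higher and 0.672% lower in Wnt5a). Unadjusted, 2 of the 8 (Cat and Nfe2l2) had a limma p under 0.05, as did 1988 of all 12357 genes tested. On the recovered reads, edgeR and DESeq2 also called 0 of the 8, against 246 and 538 of all genes tested. Library values did not overlap between the groups for 3 of the 8 (Gpx4, Cat and Nfe2l2), against 44.2% of all genes tested, and single samples did not overlap for 1 (Cat), against 12.4%. The median log2 difference, Wnt5a minus empty, was 0.07 over these 8 genes and 0.0026 over all genes tested. With 2 libraries a side the smallest p of an exact two-sided permutation test is 0.333, so no single-gene permutation test could pass.

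**Figure D2:**
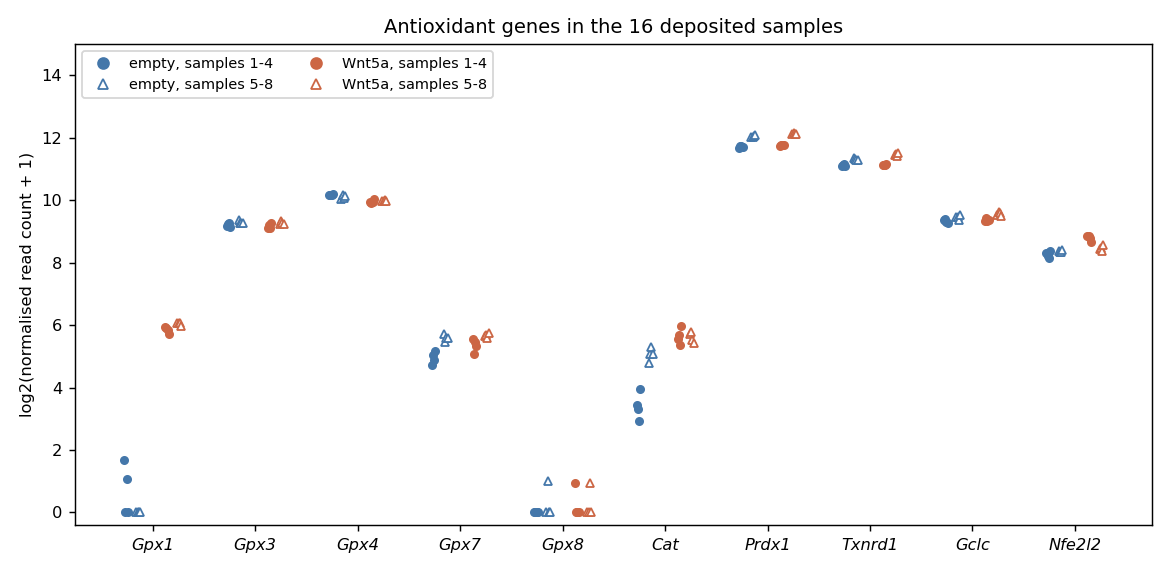
Normalised read count, as log2(count + 1), of each of the 10 genes in the 16 deposited samples (blue, empty; orange, Wnt5a; filled circles, samples 1 to 4; open triangles, samples 5 to 8). Gpx1 separates the groups, Gpx8 is at or near 0 throughout, Cat is lowest in empty samples 1 to 4, and Prdx1 and Txnrd1 separate samples 5 to 8 from samples 1 to 4 in both groups.

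Catalase, which breaks down hydrogen peroxide in peroxisomes without glutathione or thioredoxin, showed the widest difference among the 8. Its normalised read count in single empty samples ran from 6.58 to 38.6 (median 20.4), and in single Wnt5a samples from 40.1 to 62.1 (median 48.0). The 2 groups did not overlap, but the empty libraries were far apart, at 9.93 (36 reads) for samples 1 to 4 and 32.6 (128 reads) for samples 5 to 8. The Wnt5a libraries were at 49.6 and 48.1. The log2 difference was 1.38 (SE 0.47, 95% interval 0.25 to 2.50, limma adjusted p = 0.214). It was 2.21 between the libraries of samples 1 to 4 and 0.55 between those of samples 5 to 8. Leaving out the empty library of samples 1 to 4 brought it to 0.57, and leaving out that of samples 5 to 8 brought it to 2.19 (the limma adjusted p was under 0.05 in the latter fit alone of the 4 that left out a library). The size of the difference thus depends on which empty library is used.

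Neither of the selenium-dependent Gpx3 and Gpx4 passed between the groups, and Gpx4 leaned lower in Wnt5a. Gpx3 ranged from 565 to 653 in the empty samples (median 609) and from 556 to 639.9 in the Wnt5a samples (median 599), and the groups overlapped. Its log2 difference was -0.02 (SE 0.08, 95% interval -0.21 to 0.17, limma adjusted p = 0.942). The median log2 difference of all tested genes of its chromosome, 11, was 0.17. Gpx4 ranged from 1057 to 1161 in the empty samples (median 1144) and from 952 to 1060.3 in the Wnt5a samples (median 1003), so its groups overlapped only at the edge. The empty libraries (1153 and 1101) lay above both Wnt5a libraries (995 and 1010.5). Its log2 difference was -0.17 (SE 0.07, 95% interval -0.34 to 0.0030, limma adjusted p = 0.320).

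Of the cysteine-dependent pair, only Gpx7 was expressed. It ran from 25.4 to 52.0 in the empty samples (median 39.0) and from 33.0 to 52.7 in the Wnt5a samples (median 46.4), with groups that overlapped. Its log2 difference was 0.24 (SE 0.24, 95% interval -0.33 to 0.80, limma adjusted p = 0.724). Its interval was wider than that of Gpx3 or Gpx4. The gene had 110 and 185 reads in the empty libraries and 172 and 212 in the Wnt5a libraries.

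Nfe2l2 encodes NRF2, the transcription factor that switches on glutathione synthesis and thioredoxin genes when its inhibitor Keap1 is inactivated by oxidants. Its normalised read count ran from 285 to 335 in the empty samples (median 322) and from 329.6 to 462 in the Wnt5a samples (median 392). The groups touched, because Wnt5a samples 5 to 8 (library value 350.2) lay near the empty libraries (307.5 and 327) and Wnt5a samples 1 to 4 (443) lay above them. The log2 difference was 0.31 (SE 0.12, 95% interval 0.01 to 0.61, limma adjusted p = 0.286), made up of 0.52 between the libraries of samples 1 to 4 and 0.10 between those of samples 5 to 8.

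Prdx1, an abundant cytosolic peroxiredoxin, Txnrd1, which reduces thioredoxin with NADPH, and Gclc, the catalytic subunit of the enzyme that starts glutathione synthesis, had overlapping groups. Prdx1 ran from 3246 to 4342 (empty) and from 3417 to 4548 (Wnt5a), Txnrd1 from 2182 to 2592 and 2214 to 2894, and Gclc from 615 to 738 and 643 to 779. Their log2 differences between groups were 0.07 (95% interval -0.30 to 0.44), 0.08 (-0.21 to 0.37) and 0.07 (-0.15 to 0.29), with limma adjusted p-values of 0.901, 0.836 and 0.811. The intervals of the 8 genes exclude a doubling for each of them but Cat.

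For Prdx1 and Txnrd1 the larger difference ran across the sample numbers, not between the groups. The labels do not say what separates samples 1 to 4 from samples 5 to 8. Prdx1 was at 3349.6 in the first and 4219 in the second empty library, and at 3458 and 4497 in the Wnt5a libraries. Samples 5 to 8 were higher by 0.33 on the log2 scale in the empty group and by 0.38 in the Wnt5a group. With both groups in one limma fit that had group as a term, the difference was 0.36 (SE 0.04, adjusted p = 0.015). This fit takes same-numbered samples of both groups as 1 set, which the labels do not establish. Its error comes from how unequal the set difference is between the groups, not from replicate libraries within a set. Txnrd1 rose from 2225 to 2534 (empty) and from 2246 to 2808 (Wnt5a), a difference of 0.25 (SE 0.05, limma adjusted p = 0.034). These were 2 of 9 members tested, both higher in samples 5 to 8, where 7.41% of all genes tested were called with 3.33% higher and 4.09% lower. Of the 8 without Gpx1, 5 were higher in samples 5 to 8 of both groups, against 35.3% of all genes tested. Gclc (0.15) and Gpx7 (0.46) were also higher in samples 5 to 8 of both groups but did not pass, with limma adjusted p-values of 0.106 and 0.098. The calls of this fit rest on the trend and on the filter: without the mean-variance trend, or without the filter on low values, 0 genes passed (Prdx1 adjusted p = 0.191 and 0.122), although 2680 and 3512 had an unadjusted p under 0.05.

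**Figure D3:**
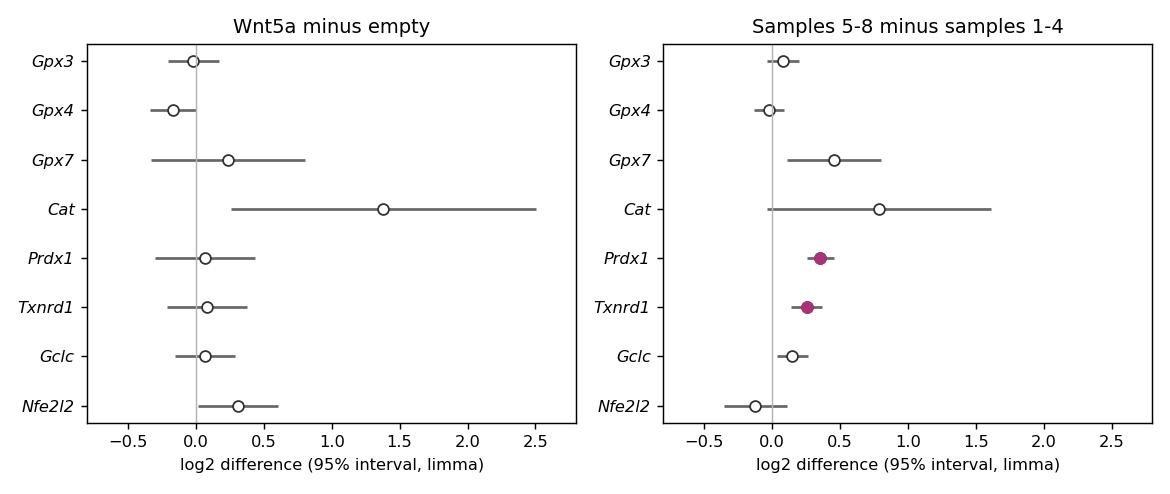
Log2 difference of the 8 tested genes other than Gpx1, with 95% intervals from limma, between the groups (left) and between samples 5 to 8 and samples 1 to 4 with group as a term (right). Filled points passed an adjusted p of 0.05: 0 on the left, and Prdx1 and Txnrd1 on the right.

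NRF2 binds antioxidant response elements, whose core was searched here as TGACNNNGC on both strands of the RefSeq promoter windows (250 bases before to 50 after each gene's start, GRCm38.p6). Of the 10 members, 9 had a window, and 3 of these (Prdx1, Txnrd1 and Nfe2l2) held the core in at least 1 window, or 33.3%, against 14.0% of all 27025 genes with a window. Counted by window the shares were 21.4% of 14 and 12.4% of 32851. Of the 94 other pathway genes with a window, 15 (16%) held the core. The sites of the 2 members that differed between sample sets are shown, with the core in capitals (here on the reverse strand, GCNNNGTCA). Nfe2l2 and the pathway genes Gclm and Srxn1 also held the core but did not pass between the sample sets. Their log2 differences, samples 5 to 8 minus 1 to 4, were -0.12, 0.18 and 0.13 (limma adjusted p = 0.444, 0.073 and 0.154). For the pathway genes Txn1 and Hmox1, which did pass, no core was found, and whether each had a window is not given here. The other pathway genes that held the core are not named. Whether the core goes with the sample-set difference was not tested. The Prdx1 site begins 133 bases before the gene start in the window chr4:116685349-116685648 (plus strand), and the Txnrd1 site begins 92 bases before it in chr10:82858956-82859255 (plus strand). A match describes these letters and not binding.
Prdx1: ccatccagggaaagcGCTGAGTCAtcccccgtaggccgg
Txnrd1: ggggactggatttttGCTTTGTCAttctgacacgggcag

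The same 2 comparisons were made over 107 other genes of peroxide and thiol metabolism, listed by role, of which 105 were in the tables and 92 were abundant enough to test. Between the groups, 0 of the 92 passed (limma, Benjamini-Hochberg over all genes tested), where 2.06% of all genes tested did. Unadjusted, 14 of the 92 had a p under 0.05, as did 1988 of all 12357 genes. edgeR called 0 of the 92, and DESeq2 called 3 (Fth1 and P4hb higher, Qsox1 lower), against 538 of all genes. The median log2 difference was -0.02, with 40 of 92 genes higher in Wnt5a, against 0.0026 and 6262 of 12357 over all genes tested. Between samples 5 to 8 and samples 1 to 4, 12 passed higher and 1 lower, where 3.33% of all genes tested passed higher and 4.09% lower. The median was 0.05 with 57 of 92 higher, against a median of -0.00073 over all genes tested.

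Regulators and targets of NRF2 held no call between the groups in the main limma fit, which has no sample-set term, and DESeq2 called 1 target, Fth1. Of 9 regulators or relatives tested, 7 were higher in Wnt5a, with a median of 0.04, where 6262 of all 12357 genes tested were higher. Nfe2l1, Mafg and Sqstm1 of these 7, named after their values were seen, lie on chromosome 11, whose tested genes had a median of 0.17. Unadjusted, 3 of the 9 (Mafg, Sqstm1 and Bach2) had a limma p under 0.05, as did 1988 of all 12357 genes. The largest difference was that of Bach2, a repressor of NRF2 target genes, at 1.15 (limma adjusted p = 0.131), named after its values were seen and resting on levels of 8.94 ± 2.57 and 21.1 ± 6.32 (SD, n = 2). Keap1 was at 685 ± 8.04 in the empty and 687 ± 20.7 in the Wnt5a libraries (SD, n = 2). Its log2 difference was 0.0023, and it turned to -0.02 after median centring and to -0.00095 in DESeq2. Cul3, the ubiquitin ligase scaffold that works with Keap1, was the most abundant gene of its class per kilobase, and differed by -0.15 (limma adjusted p = 0.395). Of 16 NRF2 targets tested, 4 were higher in Wnt5a and the median was -0.03. The ferritin light chain Ftl1, the most abundant target per kilobase, differed by 0.16 (limma adjusted p = 0.557).

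The glutathione and thioredoxin enzymes likewise did not pass between the groups in the main limma fit. Gclm, the regulatory partner of Gclc, was at 550.2 ± 48.8 and 568 ± 50.2 (SD, n = 2), and Gsr, which regenerates reduced glutathione, at 905 ± 55.4 and 884 ± 72.8. Prdx2, the most abundant peroxiredoxin of the list per kilobase, differed by -0.03 and the mitochondrial and peroxisomal Prdx5 by 0.12. Txn1, the cytosolic thioredoxin, differed by 0.12 and Sod1, which turns superoxide into hydrogen peroxide, by 0.16. Gpx2 was at 282 and 378 in the empty libraries and at 323 and 662 in the Wnt5a libraries, and its difference of 0.50 (SE 0.31, limma adjusted p = 0.528) depends on which Wnt5a library is used. Without that of samples 5 to 8 it was -0.02, and without that of samples 1 to 4 it was 1.02.

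Genes that make or use selenocysteine were described because Gpx1, Gpx3, Gpx4 and Txnrd1 depend on it. All 8 genes of the machinery were tested, 3 were higher in Wnt5a, and their median log2 difference was -0.05. Secisbp2, which recognises the selenocysteine element of the messenger RNA, differed by 0.06 and Eefsec, the dedicated elongation factor, by -0.02. Sepsecs and Pstk, which build selenocysteine on its transfer RNA, differed by -0.07 and 0.29, and Sephs2, which makes the selenium donor, by -0.09. Its relative Sephs1 differed by 0.02, and Lrp8, a receptor for selenoprotein P, by -0.20. Scly, which frees selenium from selenocysteine, was at 771 ± 10.6 in the empty and 629 ± 1.36 in the Wnt5a libraries (SD, n = 2). Its log2 difference was -0.29 (limma adjusted p = 0.110), and the median over all tested genes of its chromosome, 1, was -0.17. Of 12 other selenoprotein genes, 6 were higher in Wnt5a, and Selenow, the most abundant per kilobase, differed by 0.0043 (it turned to -0.01 after median centring).

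The remaining classes held no call in the main limma fit either. DESeq2 called P4hb (chromosome 11) and Qsox1 (chromosome 1), both of oxidative folding in the endoplasmic reticulum and named after their values were seen. They ran in opposite directions, with limma log2 differences of 0.43 and -0.32. DESeq2 called 3 of the 92 pathway genes and 538 of all 12357 genes tested, and no set test was made. Pdia3, which forms disulfide bonds in the endoplasmic reticulum, differed by -0.03, and Gch1, which makes the antioxidant tetrahydrobiopterin, differed by -0.24 (limma adjusted p = 0.164). Of 6 oxidase genes that produce superoxide or hydrogen peroxide, 1 (Nox4, named after its values were seen) was tested, and the most abundant per kilobase, Cyba, was at 6.48 ± 0.202 and 6.21 ± 1.49 (SD, n = 2), below the filter.

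The pathway genes that leaned most between the groups lay mainly on 3 chromosomes. Of the 14 with an unadjusted p under 0.05, 11 were on chromosomes 1 (3 genes), 11 (3) and 19 (5). These chromosomes held 690, 1020 and 412 of the 12357 genes tested. How many of all genes with such a p lay on them was not counted. The median of all tested genes there was -0.17, 0.17 and 0.36. It was -0.02 to 0.02 on 17 further chromosomes that held 20 or more tested genes. On chromosome 1, 0 of 7 pathway genes were higher in Wnt5a (median -0.28). On chromosome 11, 5 of 6 were higher (median 0.18), led by P4hb at 0.43. On chromosome 19, 4 of 6 were higher (median 0.25). Among them were the mitochondrial peroxiredoxin Prdx3 at 0.43, the ferritin heavy chain Fth1 at 0.37 and Slc3a2, part of the cystine importer, at 0.45. Against the chromosome's shift, Ccs, the copper chaperone of Sod1, was at -0.40 and the NRF2 target Gstp1 at -0.25. On the other chromosomes the median was -0.02 over 73 genes. These genes were named after their values were seen. The part of these chromosome-wide shifts in the single genes was not tested.

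Across the sample sets, 13 of 92 pathway genes and 2 of 9 members were called, where 7.41% of all genes tested were. The fit was that given for Prdx1, with the same limits, and gives the mean difference over both groups, which need not be equal in them. The genes called were named after their values were seen. The 14 higher in samples 5 to 8 differed by 0.19 to 0.73 on the log2 scale (limma adjusted p = 0.015 to 0.048 over all 15). They included thioredoxin itself: Txn1 went from 1179 to 1391 (empty) and from 1244 to 1549.7 (Wnt5a), a difference of 0.28. Prdx2 (0.21) and Sod1 (0.22) were also among them. Hmox1, the heme-degrading enzyme that NRF2 induces, went from 59.5 to 101 (empty) and from 73.0 to 107 (Wnt5a), a difference of 0.65. Txnip, which binds thioredoxin and follows glucose supply, went from 868 to 1682 and from 1071 to 1412 (0.68), and Gpx2 differed by 0.73. Slc3a2, Glrx5, Selenof, Selenot, Pdia4 and Pdia6 made up the rest. Maff, a small partner of NRF2, was lower in samples 5 to 8, going from 280.1 to 203 (empty) and from 297 to 194 (Wnt5a), a difference of -0.53. DESeq2 on the recovered reads called 7 of the 13 pathway genes (Maff lower, and Prdx2, Txn1, Slc3a2, Sod1, Selenof and Pdia6 higher). Gpx2, Txnip and Hmox1, with the largest differences, were not among them. Whether the size of a sample-set difference varied between the groups was not tested, since each cell of that comparison holds 1 library.

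**Figure D4:**
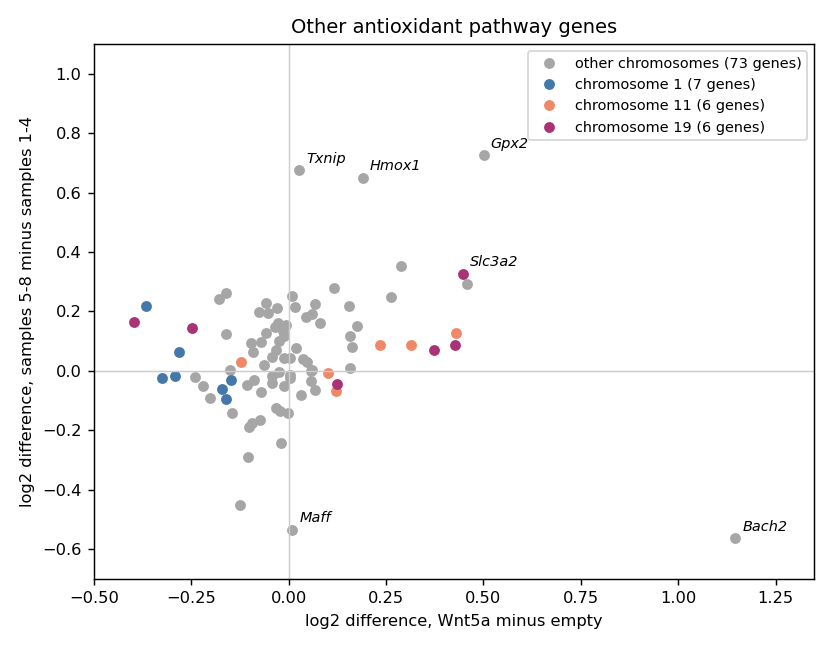
Log2 difference of the 92 tested pathway genes between the groups (horizontal axis) and between samples 5 to 8 and samples 1 to 4 (vertical axis), with genes on chromosomes 1, 11 and 19 coloured. Genes on chromosome 1 lie left of 0 and most of those on chromosomes 11 and 19 right of it, while Gpx2, Txnip and Hmox1 stand highest and Bach2 and Maff lowest on the vertical axis.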

How the data were processed

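Poly-A RNA of 16 samples was sequenced (NEBNext Ultra libraries from 500 ng of total RNA, per the labels' protocols). The submitters' processing notes name TopHat, Bowtie, HTSeq and DESeq2; their versions, the genome build and the annotation are not given in the sources used here. The deposited signal is 1 normalised value per gene. In each deposited file 100% of values were whole multiples of 1 step (tolerance 0.001), so reads were recovered by dividing by it. Samples of a group with an index of dispersion under 1.5 (genes with at least 10 reads on average) were averaged to 1 library. limma 3.58.1 (R 4.3.3, eBayes with trend) was fitted to log2(value + 1) for genes with a mean of at least 10, a scale that understates changes of low genes, with Benjamini-Hochberg adjustment at 0.05. A second fit took the sample set as the contrast with group as a term. edgeR 4.0.16 and DESeq2 1.42.0 were run on reads summed per library. Fits were tested on simulated data. Strand use is not given, so overlapping genes carry added uncertainty. The members and gene lists were chosen with earlier results of these data known. Named pathway genes were, by rule, those called between the groups (0), the most abundant per kilobase of each class and those with set roles; genes outside it are marked. Some genes of the lists are not reported here. RefSeq gene order (GRCm38.p6) gave chromosomes and neighbours.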

Additional observations from a re-analysis of the deposited data

How the results depend on the processing

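Between the groups, 254 genes were called, against 146 without the filter, 102 with a minimum of 50, 158 without trend, 538 with DESeq2, 4377 with all 16 samples separate and 138 to 1098 when 1 library was left out, where the lone library is assumed to vary like the others. Members other than Gpx1 called numbered 0, against 3 with all 16 samples separate (Cat and Nfe2l2 higher, Gpx4 lower) and 0 to 1 with 1 library left out. Pathway genes called numbered 0, against 3 with DESeq2, 33 with 16 samples separate and 0 to 7 with 1 library left out. The labels share only numbers between groups, so a pairing is not established (same-numbered libraries deviated together with r = 0.44 over 12357 genes, which are not independent). With the replicate block (sample set as a term in limma), 2095 genes, 1 member (Cat, adjusted p = 0.038) and 15 pathway genes were called. The pathway genes were Gpx2, Prdx3, Slc3a2, Chac1, Mafg, Bach2, Sqstm1, Fth1 and P4hb (higher in Wnt5a), and Ccs, Scly, Idh1, Gstp1, Qsox1 and Gch1 (lower). Those outside the naming rule were named after their values were seen.

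Across the sample sets, 916 genes, 2 members and 13 pathway genes were called. No call remained in any of these without the filter (0) or without trend (0); DESeq2 gave 395, 2 and 7, and 16 separate samples gave 5939, 6 and 50. Alternatives for the pathway genes in this comparison were added after the data were seen. The causes of these differences were not tested. 

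Several small group differences turned sign with 1 library left out: Gpx3 (-0.0619 to 0.0205), Gpx7 (-0.0711 to 0.548), Prdx1 (-0.120 to 0.258), Txnrd1 (-0.0806 to 0.242), Gclc (-0.0241 to 0.159), Gpx2 (-0.0159 to 1.02), Prdx2 (-0.149 to 0.0874), Txn1 (-0.0424 to 0.275), Gclm (-0.0453 to 0.136), Gsr (-0.119 to 0.0490), Eefsec (-0.156 to 0.109), Sepsecs (-0.179 to 0.0302), Sephs1 (-0.0368 to 0.0763), Selenow (-0.0501 to 0.0586), Keap1 (-0.0285 to 0.0330) and Pdia3 (-0.119 to 0.0613). Others kept their sign but moved by over 1.5 times: Nfe2l2 (0.142 to 0.480), Pstk (0.0539 to 0.524), Sod1 (0.0352 to 0.276), Ftl1 (0.0248 to 0.298), Secisbp2 (0.00125 to 0.120), Lrp8 (-0.300 to -0.106) and Sephs2 (-0.129 to -0.0517). Such a fit no longer balances the sample sets. Of the fits with all libraries, median centring turned Selenow (-0.0148) and Keap1 (-0.0168), and DESeq2 turned Keap1 (-0.00095).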
